A study of Mus musculus with 8 samples.

Results

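The prolactin, growth hormone and serotonin axis of mouse islets is described here through 10 genes, chosen by symbol from the 22632 rows of the expression table. They are the receptor genes Prlr and Ghr, the signal transducers Stat5a and Stat5b, the feedback genes Cish and Socs2, the serotonin synthesis genes Tph1, Tph2 and Ddc, and the serotonin receptor gene Htr2b. All 10 had a row, and 9 passed the minimum set for testing, which was 1 RPM, the deposited unit of reads scaled to library size, in 2 or more libraries. Tph1 did not pass.

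Total RNA came from islets of C57BL/6 mice, in 4 groups of 2 libraries. At 8 weeks of age, on a low-fat diet with 10% fat, islets came from wild-type mice (Tcf7 +/+) and from knockout mice (Tcf7 -/-). At 20 weeks, on a high-fat diet with 45% fat, the same genotypes were sampled, the design text naming wild-type littermates as controls. The treatment label calls the first diet regular chow, and no start age of either diet is given. Age and diet changed together and cannot be told apart. Tcf7 encodes the transcription factor TCF-1. The labels give neither the deleted part of the gene, nor the sex of the mice, nor whether replicate libraries stem from different mice. The p-values below thus measure the spread between these libraries, which may be technical.

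The receptors for prolactin and growth hormone are cytokine receptors without a kinase of their own. When a hormone binds, the attached kinase JAK2 phosphorylates STAT5, which enters the nucleus and turns on targets that include Cish and Socs2, whose products damp the same signal. In mouse islets this pathway is best known from pregnancy, when lactogenic hormones raise Tph1 and Tph2 and serotonin made in beta cells acts on the receptor encoded by Htr2b. TPH adds a hydroxyl group to tryptophan, the rate-limiting step, and the decarboxylase DDC completes serotonin.

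Promoter sequences of the RefSeq annotation (build GRCm38.p6) were available for 9 of the genes and are shown for the pair that carries the STAT5 recognition motif TTCNNNGAA, which reads the same on both strands. The windows span 250 bases before to 50 bases after an annotated start, and capitals mark the motif. The Cish window (chr9:107296409-107296708, plus strand) held 2 motifs, the first beginning at the annotated start base and the second 11 bases further on. The Prlr window of the second of 3 annotated starts (chr15:10223656-10223955, plus strand) held 1, beginning 110 bases before the start.
Cish: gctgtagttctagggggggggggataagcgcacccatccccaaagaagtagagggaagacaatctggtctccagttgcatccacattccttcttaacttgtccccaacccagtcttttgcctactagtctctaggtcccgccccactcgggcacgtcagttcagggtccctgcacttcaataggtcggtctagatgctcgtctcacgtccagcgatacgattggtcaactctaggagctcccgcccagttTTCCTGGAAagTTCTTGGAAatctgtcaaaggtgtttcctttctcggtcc
Prlr: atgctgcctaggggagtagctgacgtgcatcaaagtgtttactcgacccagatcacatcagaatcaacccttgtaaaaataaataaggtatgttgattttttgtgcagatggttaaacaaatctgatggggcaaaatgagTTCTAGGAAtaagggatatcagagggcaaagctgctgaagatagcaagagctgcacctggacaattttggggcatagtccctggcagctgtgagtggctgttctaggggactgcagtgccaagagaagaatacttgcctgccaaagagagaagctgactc
Of the 32851 promoter windows of that annotation, 8.30% held at least 1 such motif and 0.457% held 2 or more. The other 14 windows of the axis, which include every window of Ghr, Stat5a, Stat5b, Tph1, Tph2, Ddc and Htr2b, did not hold these letters. A match is a description of the sequence only.

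The libraries held 58.7 to 191 M reads, so that 1 read was worth 0.00523 to 0.0170 RPM. Listed genes accounted for between 41.6% and 51.0% of a library at 8 weeks, compared with 55.7% to 61.2% at 20 weeks. Of 10 endocrine marker genes 10 passed the minimum, as the islet label requires, with a summed level of 38811 to 59947 RPM. Exocrine RNA was present too, the sum of 10 acinar genes running from 2491 RPM in wild-type replicate 1 of 8 weeks to 22845 RPM in wild-type replicate 2 of 20 weeks. Tcf7 itself was no lower where the label reads knockout, with 0.512 and 0.519 RPM against 0.277 and 0.381 RPM at 8 weeks and 4.56 and 2.56 RPM against 1.58 and 0.991 RPM at 20 weeks. Reads summed over a gene say nothing of a deletion within it, and the genotype directions below rest on the labels.

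Per kilobase of annotated exon, Ghr, Ddc and Prlr led the axis. Their means over the 8 libraries were 63.2, 48.4 and 35.7 RPM per kb. Stat5b followed with 9.32 RPM per kb. Htr2b, Socs2, Stat5a and Cish lay at 1.31, 1.18, 0.953 and 0.813 RPM per kb, and the hydroxylase genes were the lowest, with 0.376 for Tph2 and 0.0104 for Tph1. Most neighbours in this order overlapped in their ranges over libraries, as with Prlr (19.8 to 44.7 RPM per kb) and Ddc (39.2 to 54.8), and with Cish, Stat5a and Socs2, whose ranges lay between 0.334 and 1.54. Stat5b (6.36 to 13.0) overlapped none of the other genes, nor did Tph1 (0.00209 to 0.0227), apart from the 8-week libraries in which Htr2b was near 0. Exon lengths came from an annotation of a later build than the alignment, which bears on these levels but on no comparison between libraries.

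**Figure D1:**
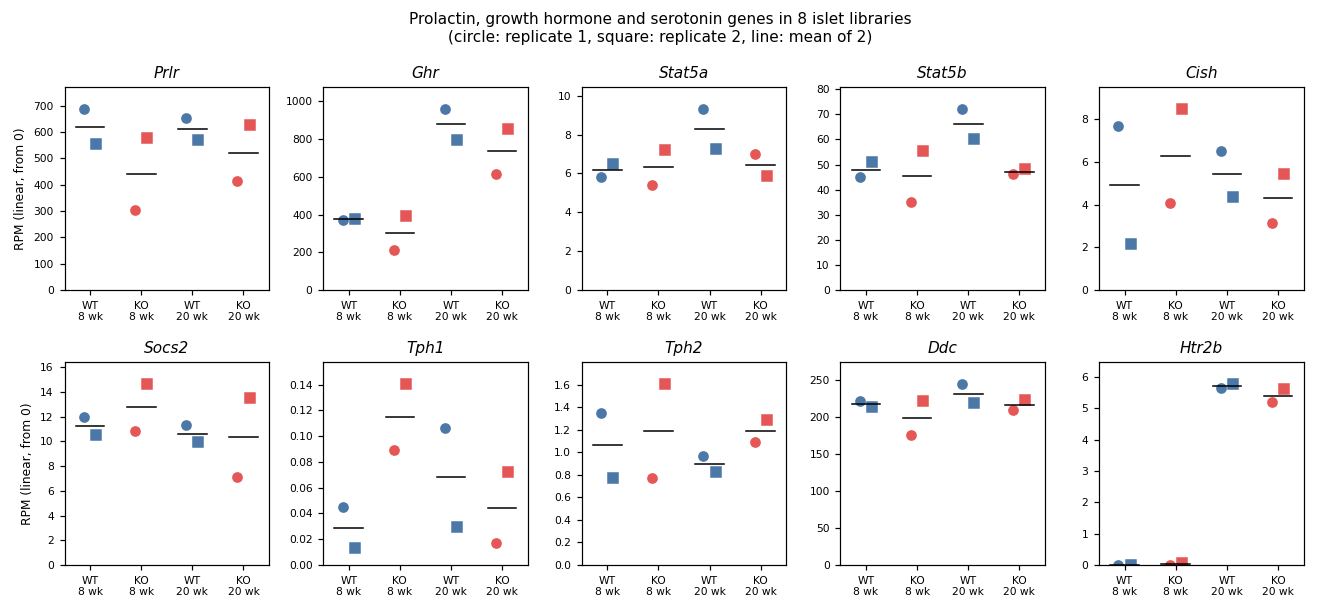
RPM of each of the 10 genes (linear axes from 0) in the 8 libraries, grouped by genotype and age, with replicate 1 as a circle, replicate 2 as a square and the mean of 2 as a line. Ghr and Htr2b stand higher in every 20-week library than in any 8-week library, while the other genes overlap between the ages.

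Reads of the hormone genes themselves were at or near 0 at this depth. Gh, the growth hormone gene, and the placental lactogen genes Prl3b1 and Prl3d1 had 0 reads in every library, which allows at most 0.0157 to 0.0511 RPM by library (3 reads; counting error only). Prl had 2 reads in 1 library, wild-type replicate 1 of 20 weeks, and 0 in the other 7. Ghrh, the gene of the hypothalamic releasing hormone, had 0, 2, 0 and 0 reads at 8 weeks and 45, 8, 53 and 28 reads at 20 weeks, at most 0.902 RPM. It was too low for testing.

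The first pair of comparisons asked whether the axis differed between the genotypes. None of the 9 tested genes was called at 8 weeks, at 20 weeks, or in the difference between those contrasts. The limma adjusted p was 1 for each gene at 8 weeks, 0.9997 at 20 weeks and 0.99998 in the interaction, and no gene had an unadjusted p under 0.05 in any of the 3 contrasts. Among all 13347 tested genes 0.21% were called at 8 weeks (0.015% higher and 0.195% lower in the libraries labelled knockout) and 0.045% at 20 weeks (0.03% higher and 0.015% lower). The interaction called 0.0674%, of which 0.0599% were higher and 0.00749% lower, so that a count of 0 among 9 lies near the background. The test on recovered reads with edgeR also called 0 of the 9 in each.

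Prlr (ENSMUSG00000005268), the prolactin receptor gene, stood at 686 and 553 RPM in the 8-week wild-type islets, compared with 304 and 578 RPM in those labelled knockout. At 20 weeks it stood at 652 and 569 RPM against 412 and 627 RPM. At each age 1 library labelled knockout, replicate 1, was the lowest of its age, while replicate 2 lay among the wild-type values. The log2 fold change was -0.55 ± 0.36 (SE) at 8 weeks, with an interval of -1.31 to 0.20, and -0.26 ± 0.36 at 20 weeks, with an interval of -1.02 to 0.50 (limma, 95%). Without replicate 1 labelled knockout the values were -0.09 at 8 weeks and 0.04 at 20 weeks. That 8-week library also had the highest acinar sum of its age, 19590 RPM against 2491 to 9953 RPM in the other 3. At 20 weeks replicate 1 labelled knockout had the lowest acinar sum, 7260 RPM, and its part in the low Prlr value was not tested.

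Ghr (ENSMUSG00000055737), the growth hormone receptor gene, stood at 374 and 375 RPM in the 8-week wild-type islets, compared with 211 and 394 RPM in those labelled knockout. At 20 weeks the values were 959 and 797 RPM against 615 and 855 RPM. The genotypes overlapped at both ages, with replicate 1 labelled knockout again lowest. The log2 fold changes were -0.38 ± 0.35 and -0.27 ± 0.35 (limma, SE), with intervals of -1.11 to 0.36 and -1.002 to 0.463. Without that replicate 1 the 8-week value was 0.07.

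Stat5b and Stat5a encode near-identical transducers from neighbouring genes, so their reads are uncertain where the authors' counting could split them. Stat5b (ENSMUSG00000020919) stood at 45.1 and 50.9 RPM in the 8-week wild-type islets, compared with 35.2 and 55.3 RPM in those labelled knockout. The 20-week libraries gave 72.0 and 60.2 RPM against 46.3 and 48.1 RPM, and here the genotypes did not overlap. The log2 fold change at 20 weeks was -0.47 ± 0.24 (limma adjusted p = 0.9997, interval -0.98 to 0.04), the lowest of the 9 genes in that contrast. Stat5a (ENSMUSG00000004043), the less abundant form, had 5.81 and 6.51 RPM against 5.43 and 7.19 RPM at 8 weeks. At 20 weeks it had 9.30 and 7.25 RPM against 6.98 and 5.89 RPM, also without overlap, at -0.31 ± 0.21. Per kilobase Stat5b exceeded Stat5a by 8.35 to 10.7 times in every library. In all, 3 of the 9 tested genes lay lower without overlap in the libraries labelled knockout at 20 weeks, the third being Htr2b, and 1 lay higher, Tph2. Over all tested genes 21.2% lay lower without overlap and 12.3% higher, so that with 2 libraries a group these counts are near the background.

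Cish (ENSMUSG00000032578), which encodes a STAT5-induced inhibitor of cytokine receptors, varied most between replicates among the genes at a usable depth. At 8 weeks it stood at 7.67 and 2.14 RPM (858 and 332 reads) in wild-type islets, compared with 4.08 and 8.46 RPM (780 and 1386 reads) in the libraries labelled knockout. The replicates of each genotype thus differed by more than the genotypes did. At 20 weeks the values were 6.48 and 4.35 RPM against 3.15 and 5.43 RPM. The log2 fold changes were 0.41 ± 0.37 and -0.29 ± 0.37 (limma). The first depended on each 8-week library: without wild-type replicate 1 of 8 weeks it was 1.14, and without wild-type replicate 2 it was -0.32. Without replicate 1 labelled knockout of 8 weeks it was 0.86, and without replicate 2 labelled knockout it was -0.04. The interaction, -0.70 ± 0.52, likewise became -1.43 (limma adjusted p = 0.044) without wild-type replicate 1 of 8 weeks and 0.03 without wild-type replicate 2.

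Socs2 (ENSMUSG00000020027), the gene of a suppressor of growth hormone signalling, was steadier than Cish at 8 weeks, with 11.9 and 10.5 RPM against 10.9 and 14.6 RPM. At 20 weeks it stood at 11.3 and 9.94 RPM against 7.10 and 13.5 RPM, and here the libraries labelled knockout were no steadier than for Cish. The genotypes overlapped at both ages, with log2 fold changes of 0.16 ± 0.25 and -0.10 ± 0.25 (limma). At 8 weeks wild-type replicate 1 and replicate 2 labelled knockout were the 2 highest libraries for Cish, Socs2 and Tph2 alike. At 20 weeks the libraries did not rank alike for these genes, Cish being highest in wild-type replicate 1 and both others in replicate 2 labelled knockout.

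Tph1 (ENSMUSG00000040046), the hydroxylase gene that responds most to pregnancy in mouse islets, was barely present. The 8-week wild-type libraries held 5 and 2 reads and those labelled knockout 17 and 23, or 0.0447 and 0.0129 RPM against 0.0889 and 0.140 RPM. At 20 weeks it had 18 and 2 reads against 1 and 5 reads. The genotypes did not overlap at 8 weeks, where the share of all genes without overlap was not computed. They overlapped at 20 weeks, and at this depth no comparison was made. Mast cells also use Tph1, and 6 of 9 mast cell markers, among them Cma1, Mcpt4, Tpsab1 and Fcer1a, stayed under 0.1 RPM in every library. In both 8-week libraries labelled knockout these 6 markers were at 0. The sum of the 9 was 6.02 and 8.45 RPM in the 8-week wild-type islets, 10.6 and 14.5 RPM in those labelled knockout, and 8.82 to 14.6 RPM at 20 weeks. Nearly all of it came from Kit, Cpa3 and Hdc, which other cells also express, and Cpa3 stood at 0.858 and 2.25 RPM against 4.71 and 2.20 RPM at 8 weeks, in step with the acinar sum in its lowest and highest library.

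Tph2 (ENSMUSG00000006764), the hydroxylase gene of neurons that islets also use, stood at 1.35 and 0.774 RPM (151 and 120 reads) in wild-type islets, compared with 0.768 and 1.60 RPM in the libraries labelled knockout at 8 weeks. The 20-week libraries gave 0.970 and 0.829 RPM against 1.09 and 1.28 RPM, higher without overlap in the libraries labelled knockout. The log2 fold change there was 0.20 ± 0.22 on the log2(RPM + 1) scale, which understates the change of so low a gene (limma adjusted p = 0.9997). edgeR gave 0.44 on the reads, with an adjusted p of 0.71.

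Ddc (ENSMUSG00000020182), the decarboxylase gene, varied least of the 10 between libraries. It stood at 222 and 214 RPM against 175 and 222 RPM at 8 weeks and at 244 and 219 RPM against 209 and 223 RPM at 20 weeks. The log2 fold changes were -0.14 ± 0.26 and -0.10 ± 0.26 (limma). The lowest library on RPM was replicate 1 labelled knockout of 8 weeks, but not with the other scalings. By median of ratios it had 224, against 199 in replicate 2 labelled knockout of 20 weeks. By listed-gene reads it had 420, against 360 in wild-type replicate 2 of 20 weeks. The decarboxylase also serves dopamine synthesis, and Th, which encodes the hydroxylase of that route, was present at 6.87 to 19.8 RPM.

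**Figure D2:**
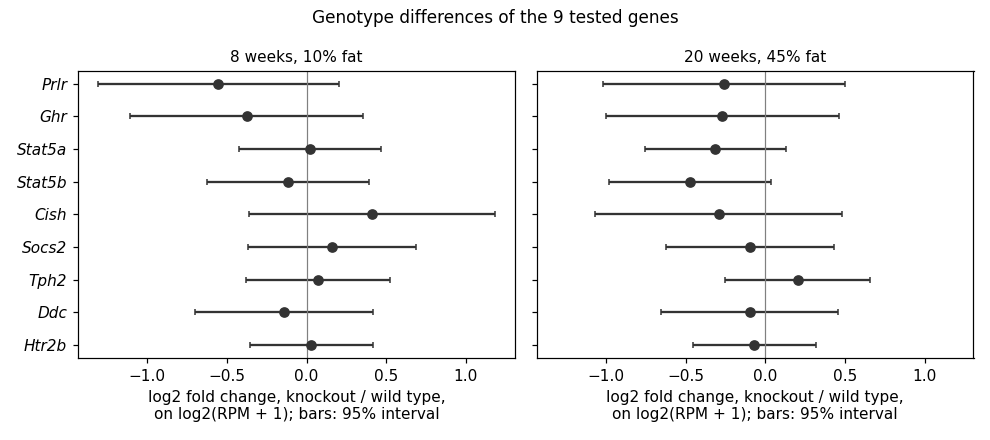
Log2 fold change of knockout-labelled over wild-type libraries on log2(RPM + 1) for the 9 tested genes, at 8 weeks on 10% fat (left) and 20 weeks on 45% fat (right), with limma 95% intervals. Every interval includes 0, from -1.31 to 0.20 for Prlr at 8 weeks to -0.98 to 0.04 for Stat5b at 20 weeks.

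Other genes of the pathway were read from 5 lists, given here for the genotype contrasts. None of 6 tested genes of the hormones and the growth hormone axis, 24 JAK, STAT, SOCS, PIAS and phosphatase genes, 15 genes known from prolactin or pregnancy responses, 16 genes of serotonin handling and 1 further serotonin receptor gene was called at either age or in the interaction. Their median log2 fold changes at 8 weeks were -0.10, -0.03, -0.03, 0.01 and -0.72, against -0.01 over all genes. At 20 weeks they were 0.05, -0.08, 0.06, -0.06 and 0.17, against -0.04 over all genes. The smallest p-value of these genes at 8 weeks belonged to Cldn8, a tight junction gene (0.82 ± 0.26, limma adjusted p = 0.42). At 20 weeks the smallest was that of Tnfrsf11b, the osteoprotegerin gene, with a log2 fold change of 0.79 ± 0.23 (limma adjusted p = 0.50). Its wild-type libraries held 6.92 and 6.08 RPM and those labelled knockout 10.1 and 14.2 RPM. At 8 weeks markers of other cells differed between the libraries of the genotypes. The acinar sum did not overlap, at 2491 and 6995 RPM in wild-type islets against 19590 and 9953 RPM, and 10 of 10 acinar genes had a positive fold change (median 1.83), of which 1, Amy2a5, was called on RPM and none with either other scaling. All 7 duct genes had a positive fold change, with none called. The stromal marker Thy1 was called lower on RPM, as were 4 of 7 tested leukocyte markers and 3 of 5 tested neuron markers. With median-of-ratios scaling 0 stromal, 2 leukocyte and 0 neuron markers were called lower, and with listed-gene reads 0, 3 and 0. The sum of 8 leukocyte markers was 49.2 and 57.9 RPM in wild-type islets against 22.0 and 22.95 RPM. At 20 weeks the acinar sum went the other way, also without overlap. It was 8441 and 22845 RPM in wild-type islets against 7260 and 8318 RPM in the libraries labelled knockout. There 10 of 10 acinar genes had a negative fold change (median -0.90), with 0 called. The part of these markers in the values above was not tested.

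The other main comparison was that of the 20-week, high-fat islets with the 8-week, low-fat islets, averaged over the genotypes. Ghr and Htr2b were the 2 genes called, both higher at 20 weeks, and 7 did not pass. Of all tested genes 37.2% were called in this contrast, 31.2% higher and 6.05% lower, so that 2 of 9 is no more than the background. The same 2 lay higher in every 20-week than in any 8-week library, as did 30.4% of all tested genes, while 8.19% lay lower. The median of all genes rose by 0.17 on the log2 scale. It was -0.02 with median-of-ratios scaling and -0.17 with scaling to the reads in listed genes, and the share of higher among called genes moved from 83.8% to 50.2% and 32.8%. Of the 13347 tested genes 807 were called lower on RPM, 3926 by median of ratios and 5195 by listed-gene reads. Changes are therefore given relative to the median of all genes where so stated.

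Ghr ran from 211 to 394 RPM over the 4 libraries of 8 weeks and from 615 to 959 RPM over the 4 of 20 weeks. Every 20-week library thus lay above every 8-week library, in wild type and in the libraries labelled knockout alike. The log2 fold change was 1.27 ± 0.25 (limma adjusted p = 5.6e-04), or 1.10 relative to the median of all genes, a value higher than that of 94.9% of tested genes. It was 1.05 with median-of-ratios scaling, 0.89 with scaling to the reads in listed genes and 1.04 by edgeR (adjusted p = 8.3e-04). The 15 alternatives gave 0.89 to 1.498, each past the threshold. No opposite-strand gene overlapped Ghr in GENCODE. Of genes that define fat and liver, other tissues that express this receptor, Adipoq stood at 0.0516 RPM or less and Alb at 0.259 RPM or less. The sum of 5 adipocyte markers, 3 of them under 0.1 RPM throughout, was 0.899 to 4.75 RPM at 8 weeks and 0.962 to 2.41 RPM at 20 weeks. Of 4 hepatocyte markers Ttr, which islet cells also express, made up nearly all of the sum, at 339 to 474 RPM at 8 weeks and 298 to 514 RPM at 20 weeks. Among these 4, Serpina1a stayed at 0.0432 RPM or less and Apoa1 at 5.84 RPM or less. Markers of other lists went both ways between the ages. On RPM 3 of 10 islet endocrine genes were called lower, and 7 of 10 with either other scaling. Also called lower on RPM were 3 of 5 tested stromal markers and 3 of 7 tested leukocyte markers, while 1 leukocyte marker and 2 of 10 acinar genes were called higher. Of 7 duct markers 2 were called higher and 2 lower, and of 3 tested platelet markers 1 higher and 1 lower. Over all tested genes these shares were 31.2% and 6.05% on RPM. By median of ratios 3926 of 13347 tested genes were called lower, and by listed-gene reads 5195. The part of cell makeup in the Ghr value was not tested, and in a bulk sample more RNA per cell and more cells of a type cannot be told apart.

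Prlr did not pass the test between the ages. It ran from 304 to 686 RPM at 8 weeks and from 412 to 652 RPM at 20 weeks, with a log2 fold change of 0.13 ± 0.25 (limma adjusted p = 0.72), or -0.04 relative to the median of all genes. Its sign turned with the scaling, at -0.10 by median of ratios and -0.26 by listed-gene reads. The ratio of Ghr to Prlr reads within a library does not depend on scaling and was computed after the values were seen. In wild type it was 0.545 and 0.679 at 8 weeks and 1.47 and 1.401 at 20 weeks. In the libraries labelled knockout it was 0.693 and 0.682 at 8 weeks and 1.49 and 1.36 at 20 weeks. The libraries labelled knockout that were low in both receptors thus lay within or near the ratios of their age.

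Htr2b (ENSMUSG00000026228), the receptor gene through which serotonin acts on beta cells in pregnancy, had 0, 2, 0 and 9 reads in the 8-week libraries. The 20-week wild-type libraries held 956 and 390 reads and those labelled knockout 305 and 389, or 5.66, 5.77, 5.19 and 5.604 RPM. The 20-week values were nearly level, and no 8-week library came near them. The log2 fold change was 2.69 ± 0.13 on log2(RPM + 1) (limma adjusted p = 5.9e-12). It depends on the pseudocount, being 5.62 with 0.1 RPM in place of 1 RPM, and edgeR gave 8.33 on the reads (adjusted p = 1.7e-05). With 11 reads in all at 8 weeks, none of these values is a bound on the change. Between the genotypes at 20 weeks it was -0.07 ± 0.18 (limma adjusted p = 0.9997).

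The gene lies wholly inside Psmd1, a proteasome subunit gene on the opposite strand, and 252 of its 2131 exon bases also belong to exons of Psmd1 in GENCODE. Psmd1 was level, at 51.2 to 60.0 RPM at 8 weeks and 50.3 to 60.5 RPM at 20 weeks. The ratio of Htr2b to Psmd1 reads was 0.0935 to 0.106 in the 20-week libraries and at most 0.000916 in those of 8 weeks. The sources used here do not give whether counting used strand, and without strand the reads of both genes cannot be told apart.

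Other genes had the pattern of Htr2b. Over all rows, 138 genes lay under 0.1 RPM in all 4 libraries of 8 weeks and above 1 RPM in all 4 of 20 weeks, Htr2b among them, and 0 genes did the reverse. Of the 120 with an entry in GENCODE 85.0% overlapped a gene on the opposite strand, against 38.0% of all 20766 matched rows. Overlap with a listed opposite-strand gene was found for 71.7% against 17.6%. Among tested genes, the 2977 with such a partner had a median log2 fold change of 0.29 between the ages and 43.0% were called higher. The 10137 without one had a median of 0.14 and 27.4% were called higher. Whether the libraries of both ages were counted alike with respect to strand is not known, which bears on every fold change between the ages and most on genes with such a partner. For Htr2b such a difference in counting and a difference in the islets cannot be told apart.

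**Figure D3:**
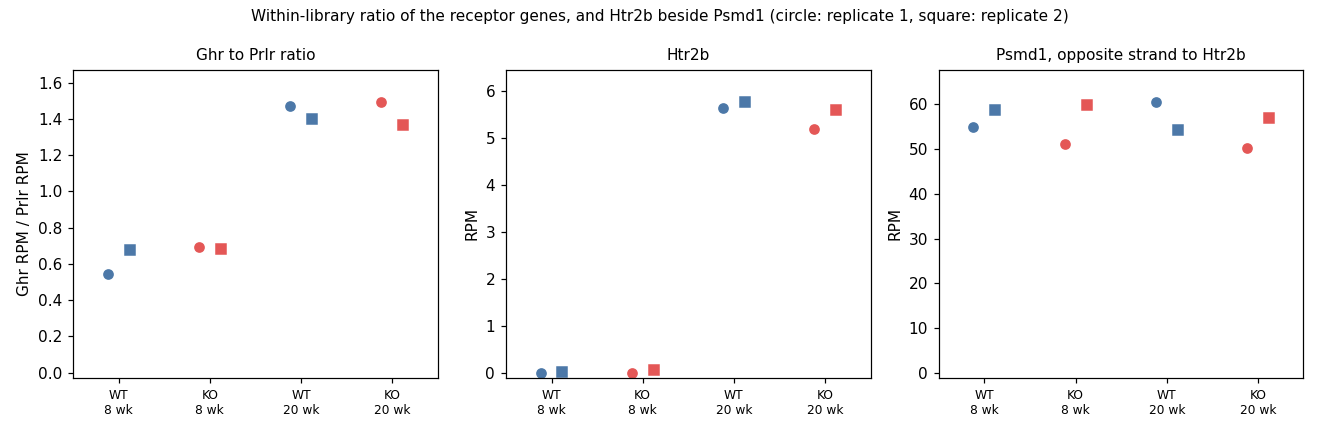
Ratio of Ghr to Prlr RPM (left), RPM of Htr2b (middle) and RPM of Psmd1, which holds Htr2b on its opposite strand (right), in each library by genotype and age. The ratio lies at 0.545 to 0.693 at 8 weeks and 1.36 to 1.49 at 20 weeks, and Htr2b goes from near 0 to between 5.19 and 5.77 RPM while Psmd1 is level.

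The remaining genes overlapped between the ages. Relative to the median of all genes the log2 fold change was 0.10 for Stat5b, 0.03 for Stat5a, -0.06 for Ddc, -0.21 for Tph2, -0.24 for Cish and -0.37 for Socs2. Socs2 depended on the scaling: at -0.20 ± 0.18 on RPM it did not pass (limma adjusted p = 0.40), while it was called lower by median of ratios (-0.41, adjusted p = 0.049) and by listed-gene reads (-0.58, adjusted p = 0.014). edgeR gave -0.43 with an adjusted p of 0.056, and without replicate 1 labelled knockout of 20 weeks the RPM value was 0.01. Stat5b, at 0.27 ± 0.17, was called without replicate 2 labelled knockout of 8 weeks (0.43, limma adjusted p = 0.0094). Stat5a shares 72 exon bases with Stat3 on the opposite strand, and Cish shares 479 with Gm17041 and 261 with Gm17040, which have no values here.

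Around the growth hormone receptor, 5 of 6 tested genes of the hormones and the growth hormone axis were called between the ages, 2 higher and 3 lower. Over all tested genes 37.2% were called, 31.2% higher and 6.05% lower. Igf1r, the receptor gene of insulin-like growth factor, rose from between 58.7 and 115 RPM to between 142 and 188 RPM (log2 fold change 0.93 ± 0.21, limma adjusted p = 0.0019). Ghrl, the ghrelin gene, rose by 0.84 ± 0.14. It shares exon bases with the opposite-strand genes Gm26982 and Gm44033. Igfals, which encodes the acid-labile subunit that carries the growth factor in blood, fell by 0.49 on the log2 scale and its partner Igfbp3 by 0.55, as did the ghrelin receptor gene Ghsr by 0.41. All 5 kept their call with either other scaling. Igf1, at 0.751 to 3.16 RPM, did not pass.

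Of 24 tested JAK, STAT, SOCS, PIAS and phosphatase genes 4 were called higher and 0 lower on RPM. These were Pias1 (0.70 ± 0.18) and Pias2 (0.57 ± 0.17), which encode inhibitors of activated STATs, Ptpn2 (0.54 ± 0.16), a phosphatase gene, and Socs4 (0.47 ± 0.16), as log2 fold changes by limma. Among all tested genes 31.2% were called higher and 6.05% lower, so that 4 of 24 higher is no more than the background. The list median was 0.20 against 0.17 over all genes. With median-of-ratios scaling 3 were higher and 3 lower, and with listed-gene reads 1 and 7, Pias1 being called higher in each. The direction of the list thus follows the scaling.

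Of 15 tested genes known from prolactin or pregnancy responses in rodent islets 1 was higher and 3 were lower at 20 weeks, with a median of -0.08. The shares over all tested genes were 31.2% higher and 6.05% lower. Tnfrsf11b rose from between 2.54 and 4.47 RPM to between 6.08 and 14.2 RPM (1.07 ± 0.17, limma adjusted p = 6.1e-05). The menin gene Men1, which prolactin is known to lower in mouse islets, fell by 0.57 on the log2 scale. The cyclin gene Ccnd1 fell by 0.50 and the monooxygenase gene Fmo1 by 0.47. With either other scaling these 4 kept their call. By median of ratios 8 genes of the list were lower, beside 3926 of all 13347 tested genes. By listed-gene reads 9 were lower, beside 5195 of all. Ccnd1 shares 1100 exon bases with the opposite-strand gene LTO1.

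Of 16 tested genes of serotonin cofactor supply, transport, breakdown and use 5 were higher and 5 lower, with a median of -0.05. Beside these counts, 31.2% of all tested genes were called higher and 6.05% lower. Slc18a2, the gene of a vesicular monoamine transporter, had 0.760, 0.490, 0.0889 and 0.403 RPM at 8 weeks and 7.05, 6.55, 8.87 and 8.66 RPM at 20 weeks. All 20-week values lay far above all 8-week values (log2 fold change 2.62 ± 0.14, limma adjusted p = 2.8e-11). It shares 111 of 5225 exon bases with Gm29261 on the opposite strand, for which no values were used here. The second such transporter gene, Slc18a1, rose from between 11.7 and 15.3 RPM to between 21.4 and 27.2 RPM (0.80 ± 0.15, limma adjusted p = 4.9e-04). Slc18a1 overlaps Atp6v1b2 on the opposite strand but shares 0 exon bases with it.

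Within that list 5 genes supply or recycle the hydroxylase cofactor tetrahydrobiopterin, and 3 of them were called lower. These 5 were not a list of their own, so their count is a description only. Over all tested genes 6.05% were called lower on RPM. Spr fell by 0.43, Qdpr by 0.41 and Pcbd1 by 0.38 on the log2 scale. Each was called with both other scalings, which called 3926 and 5195 of 13347 tested genes lower. Gch1, the first gene of that route, did not pass, at 56.2 to 67.5 RPM at 8 weeks and, higher without overlap, 72.0 to 94.2 RPM at 20 weeks (0.36 ± 0.17, limma adjusted p = 0.095). Pts, a further gene of the route, ran from 17.6 to 21.1 RPM and from 14.3 to 20.7 RPM (-0.07 ± 0.15, limma adjusted p = 0.76), and was called lower with either other scaling (-0.28 and -0.45). Th fell by 0.80 and Tgm2, the gene of a transglutaminase that can attach serotonin to proteins, by 0.77. The amino acid transporter genes Slc7a5 (0.55) and Slc7a8 (0.46) and the monoamine oxidase gene Maoa (0.37) were higher on RPM. Maoa was not called with median-of-ratios scaling, and with listed-gene reads none of the 3 was. Slc7a5 lies inside Gm20388 on the opposite strand and shares 0 exon bases with it. The reuptake transporter gene Slc6a4 stayed at 0.173 to 0.494 RPM and the serotonergic factor gene Fev at 0.303 to 0.592 RPM, both too low for testing. Of the 6 markers of enterochromaffin cells and serotonergic neurons, which include these, only Lmx1b was tested. It ran from 6.03 to 7.31 RPM at 8 weeks and from 9.41 to 13.2 RPM at 20 weeks. Lmx1b was called higher (log2 fold change 0.71, limma adjusted p = 8.1e-04), also with either other scaling.

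Of 13 other serotonin receptor genes 1 passed the minimum, Htr3a, which encodes a subunit of the ion channel receptor. It stood at 2.06 and 1.16 RPM in wild-type islets, compared with 0.225 and 0.995 RPM in the libraries labelled knockout at 8 weeks, and at 0.0296 to 0.274 RPM at 20 weeks. The 20-week libraries were nearly devoid of it, except for replicate 2 labelled knockout, and it was called lower (log2 fold change -0.87 ± 0.16, limma adjusted p = 4.6e-04). Among peripheral neuron markers 4 of 5 tested, Prph, Nefl, Sncg and Th, were also called lower at 20 weeks, against 6.05% of all tested genes. Tubb3 was not called on RPM or by median of ratios. By listed-gene reads all 5 were called lower, as were 5195 of the 13347 tested genes. The sum of the 6 markers was 33.0 to 57.5 RPM at 8 weeks and 18.1 to 33.1 RPM at 20 weeks. Most of it came from Tubb3 and Th. Th was highest, at 19.8 RPM, in replicate 1 labelled knockout of 8 weeks, where Htr3a was lowest of its age. Their part in the Htr3a value was not tested.

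**Figure D4:**
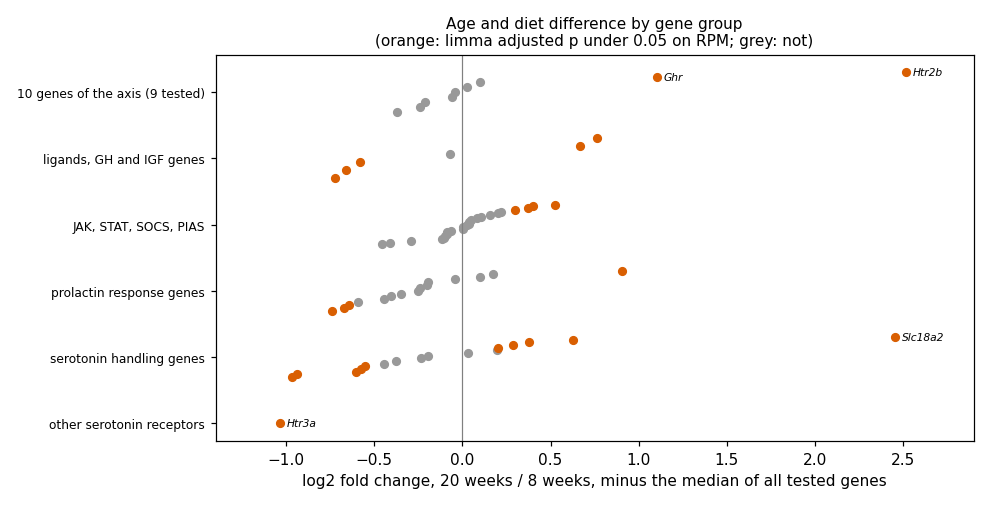
Log2 fold change of 20 weeks over 8 weeks minus the median of all tested genes (horizontal axis) for each tested gene of the axis and of the 5 pathway lists (rows), in orange where the limma adjusted p on RPM was under 0.05. Ghr at 1.10 and Htr2b at 2.52 stand apart from the other 7 genes of the axis, which lie between -0.37 and 0.10.

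Genes whose log2(RPM + 1) values ran most like those of the axis were sought over the 8 libraries, as a description without a test. Prlr was most like Fastkd5 (Pearson's r 0.959, Spearman's rho 1), Napb (0.942, rho 0.881) and Hspb8 (0.939, rho 0.738). Ghr was most like a second row deposited under the symbol Atf7ip, ENSMUSG00000053935 (0.993, rho 0.976), Abhd6 (0.993, rho 1) and Bcap29 (0.992, rho 0.976). Htr2b was most like Gm11074 (0.9998, rho 0.873), Zdhhc19 (0.9996, rho 0.970) and Tulp2 (0.9996, rho 0.802), of which Gm11074 and Tulp2 are among the 138 genes near 0 at 8 weeks. For Ghr and Htr2b the points fall into the 2 ages, and that step alone makes r high.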

How the data were processed

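The deposited table gave RPM per gene for 8 libraries, scaled by the authors to a library total larger than the reads in listed genes. RiboZero depletion and an Illumina TruSeq kit were used, per the labels' protocols. CASAVA 1.8, FastQC, TopHat 1.4.1 and the build mm9 are named in the submitters' processing notes. The sources used here do not give the counting tool, the annotation or the use of strand. All values were whole multiples of 1 read within 0.01 of a read (100%), which gave reads and depth.

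limma 3.58.1 in R 4.3.3 was fitted to log2(RPM + 1) of 13347 genes with 4 group means, a mean-variance trend, 4 residual and 14.0 prior degrees of freedom, and Benjamini-Hochberg adjustment over all of them at 0.05. edgeR 4.0.16 (quasi-likelihood, TMM) on the recovered reads was an alternative. Replicates differed beyond sampling noise (chi-square per degree of freedom 45.0 to 354), and none was merged. The fit was tested on simulated data. The members and lists were chosen with earlier results of these data known, and 3 list genes that are not reported here were taken out of the lists afterwards. Named were all 10 members, and from each list the called genes by smallest p, up to 4, or, with none, up to 3. Further called or low list genes, and genes overlapping a member, were named after their values were seen. Overlaps and exon lengths came from GENCODE M21 (GRCm38), where 20766 of 22632 identifiers matched (91.8%). Of repeated symbols, 135 rows kept their identifier, and 25 symbols turned into dates were restored. Python 3.11.15, pandas 2.3.3 and matplotlib 3.10.9 were used.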

Additional observations from a re-analysis of the deposited data

How the results depend on the processing

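The 36 fold changes of members were recomputed under up to 16 alternatives each, 554 values in all, of which 503 kept their sign and call. The calls of Ghr and Htr2b between the ages held under each of 15 alternatives. The count of members called ran from 0 to 1 at 8 weeks and from 0 to 1 in the interaction when 1 library was left out at a time, the 1 being Cish without wild-type replicate 1 of 8 weeks. All other alternatives left the counts of called members within 1.5 times, the threshold of 0.10 included, the 3 between the ages being Ghr, Htr2b and Socs2 with either other scaling. Signs turned for 46 values, none of them called and 35 from leaving out a library. Scaling to listed-gene reads gave -0.036 for Stat5a at 8 weeks, 0.0035 for Htr2b at 20 weeks and, between the ages, -0.26 for Prlr, -0.15 for Stat5a, -0.11 for Stat5b and -0.28 for Ddc. Median-of-ratios scaling gave -0.10 for Prlr and -0.12 for Ddc between the ages, and edgeR gave -0.12 for Prlr, -0.0043 for Stat5a and -0.13 for Ddc. Leaving out 1 library, with a lone sample assumed to vary like the other groups, gave these ranges where a sign turned. At 8 weeks they were -0.83 to 0.073 for Ghr, -0.15 to 0.20 for Stat5a, -0.43 to 0.20 for Stat5b, -0.32 to 1.14 for Cish, -0.042 to 0.36 for Socs2, -0.21 to 0.35 for Tph2, -0.31 to 0.030 for Ddc and -0.0092 to 0.068 for Htr2b. At 20 weeks they were -0.56 to 0.042 for Prlr, -0.61 to 0.024 for Cish and -0.52 to 0.33 for Socs2. In the interaction they were -0.17 to 0.75 for Prlr, -0.34 to 0.56 for Ghr, -1.43 to 0.031 for Cish, -0.68 to 0.17 for Socs2, -0.15 to 0.41 for Tph2 and -0.13 to 0.22 for Ddc. Between the ages they were -0.10 to 0.36 for Prlr, -0.44 to 0.29 for Cish, -0.41 to 0.010 for Socs2 and -0.18 to 0.10 for Tph2. The cause of these turns was not tested. No paired analysis was possible because the labels give no replicate numbers that groups share. A fit of the libraries of one contrast alone could be made for the genotype contrasts only. Over all genes the number called also moved with these choices: 28 at 8 weeks (9 to 224 over the alternatives), 6 at 20 weeks (0 to 266), 9 in the interaction (2 to 139) and 4971 between the ages (3462 to 7876).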
